A study of Mus musculus with 6 samples.

Results

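The T, NK and B lymphocyte signal of sorted liver sinusoidal endothelial cells (LSECs) was read from 33 genes that these 3 lymphocyte lineages are known for. The rule names the genes by lineage and sets no limit on their values, but they were picked with earlier results of these data known. They were read from the deposited values through the gene symbol of the probe annotation. The T list held 13 genes, the NK list 12 and the B list 8. Of the 33 genes, 32 were found among 24479 measured genes, with 12 of 13 for T, 12 of 12 for NK and 8 of 8 for B, while Lck carries no symbol in this annotation and was not read. Each of the 32 genes entered the comparison of the groups, in which no filter on low values was used.

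The arrays compared LSECs of Lyve-1-KO mice with those of C57BL/6J control mice (Ctrl). The Lyve-1-KO mice were of the strain B6.129S1-Lyve1tm1Lhua/J with C57BL/6 background, whose Lyve1 knockout is constitutive, in every cell of the body. Each group had 3 biological replicates, each replicate was a pool of the cells of 3 mice, and 1 Affymetrix array was run per pool. No treatment of the mice is named in the labels, and the methods give 6 to 18 weeks as the age of mice in routine analyses, without naming the age or sex of those pooled for the arrays. All livers were perfused and digested with collagenase, and the cells were enriched on a density gradient and then magnetically with beads against CD146. As controls the methods name littermates as well as purchased mice, so that genotype and origin of the mice cannot be told apart where purchased mice were used. An RNA extraction label names retina as the source, whereas all 12 LSEC markers read here lay above the array median in all 6 arrays.

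Lymphocytes are a regular part of liver cell suspensions. T cells recognize peptides through a receptor whose CD3 chains carry the signal into the cell, with CD4 or CD8 as coreceptor. NK cells kill without such a receptor, by activating receptors such as NKp46 and NKG2D and by granules of perforin and granzymes, and they are abundant in the liver sinusoids. B cells bind antigen through surface immunoglobulin, whose CD79 chains signal, and carry CD20 and CD22. CD146, the antigen of the beads, is also found on some mouse NK cells. Transcripts of these genes in an LSEC preparation are read here as lymphocyte RNA carried over in the sort, per array and for the lineages apart, and their cell of origin was not tested.

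Values are log2 levels, so that a difference of 1 is a doubling, and a log2 fold change is the mean of the 3 arrays labelled Lyve-1-KO minus the mean of the 3 Ctrl arrays. The level of an array signal depends on the probes of each gene, so levels were compared between arrays and not between genes. The array median of 5.04, the same in each array by normalization, only marks how dim a signal is. In pooled RNA, fewer cells of a type and less RNA per cell cannot be told apart.

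As background for these results, the targeted gene Lyve1 showed no drop under the knockout label, with levels of 12.85, 12.88 and 12.83 against 12.78, 12.69 and 12.84 in the Ctrl arrays, and where its probes lie relative to the deleted part is not analysed here. At the protein level, the authors report the loss of Lyve-1 in liver tissue of the knockout mice by immunoblot and immunofluorescence. The mean of 12 LSEC markers ranged from 13.07 to 13.11 over the 6 arrays. Among all 24479 genes, 1 gene (0.00409%) passed an adjusted p of 0.05 from limma, Iqcn, which is no lymphocyte gene and is named after its value was seen. At an unadjusted p under 0.05 from limma, 5.87% of all genes were higher and 5.33% lower under the Lyve-1-KO label. In 8.71% of all genes the 3 arrays labelled Lyve-1-KO lay above the 3 Ctrl arrays, and in 8.73% below them.

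Between the groups, none of the 32 lymphocyte genes passed the adjusted threshold of limma, and the lowest adjusted p was 0.370, for the B cell gene Fcmr. At an unadjusted p under 0.05, Icos was higher, and Cd8a, Ms4a1, Pax5 and Fcmr were lower, which is 5 of 32 genes. With the replicate number as a block the count was 3, namely Icos, Ms4a1 and Fcmr, where 5.78% of all genes were higher and 5.49% lower at that threshold. Of the 32 genes, 17 had a log2 fold change above 0 and 15 below 0, with a median of 0.03 against -0.004 over all genes. The groups did not overlap in 2 genes, Icos above and Cd8a below. By lineage, the median log2 fold change was -0.01 for the T genes, 0.37 for the NK genes and -0.44 for the B genes, while the differences between lineages were not tested. The spread between arrays also differed by lineage, as the highest and lowest of the 6 arrays lay apart by a median of 0.39 in the T genes, 1.48 in the NK genes and 0.99 in the B genes, against 0.31 over all genes.

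**Figure D1:**
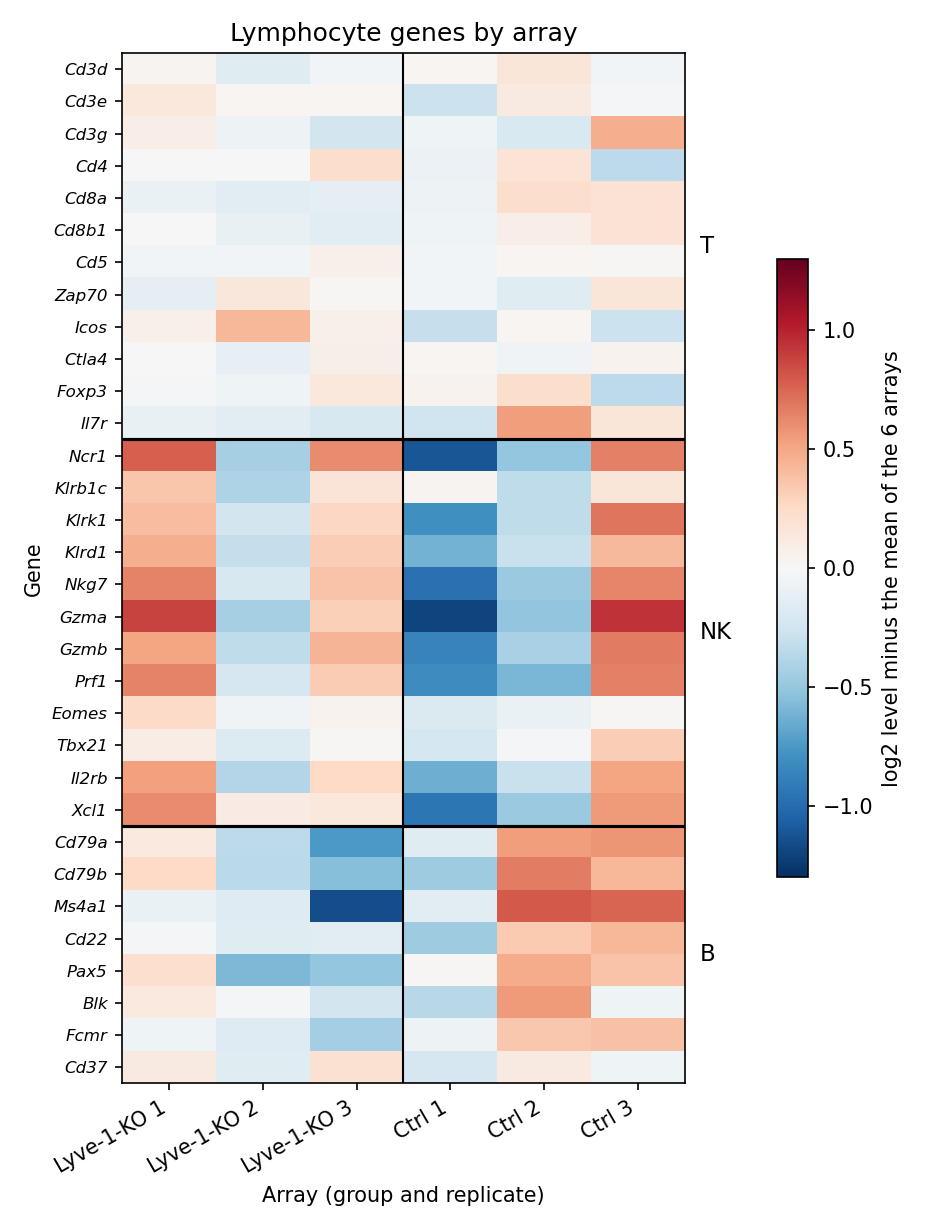
The colour shows the log2 level of each of the 32 genes (rows, by lineage) in each array (columns) minus the gene's mean over the 6 arrays. The 12 NK genes share their 3 highest arrays, Lyve-1-KO 1, Lyve-1-KO 3 and Ctrl 3. Most B genes are highest in Ctrl 2 and Ctrl 3, and the T genes vary little.

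The T cell genes gave a dim signal that varied little between the arrays. Their mean level was 4.67, 4.65 and 4.66 in Lyve-1-KO replicates 1 to 3 and 4.58, 4.77 and 4.69 in Ctrl replicates 1 to 3, which is 4.66 ± 0.01 against 4.68 ± 0.09 (SD, n = 3 arrays each). Of the 12 genes, 8 lay below the array median in all 6 arrays and 2 above it in all 6. Log2 fold changes ranged from -0.30 to 0.38, with 5 genes above 0 and 7 below.

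The CD3 chains are the defining signaling subunits of the T cell receptor, and their 3 genes are neighbours in the genome. Cd3e had levels of 5.71, 5.61 and 5.61 in the arrays labelled Lyve-1-KO and 5.30, 5.70 and 5.56 in the Ctrl arrays, with a log2 fold change of 0.13. Cd3g had 4.75, 4.59 and 4.42 against 4.60, 4.46 and 5.12, with a log2 fold change of -0.14. Cd3d had 4.25, 4.06 and 4.18 against 4.24, 4.38 and 4.18, with a log2 fold change of -0.10. The groups overlapped for each chain, and the highest array was a different one for each, Lyve-1-KO 1 for Cd3e, Ctrl 3 for Cd3g and Ctrl 2 for Cd3d.

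Of the coreceptors, Cd8a, the alpha chain of CD8 on cytotoxic T cells, had levels of 3.92, 3.86 and 3.88 in the arrays labelled Lyve-1-KO and 3.94, 4.23 and 4.19 in the Ctrl arrays. All 3 values labelled Lyve-1-KO lay below the Ctrl values, but Ctrl 1 was only slightly higher and all 6 were dim. The log2 fold change was -0.23 with a standard error of 0.09 (limma unadjusted p = 0.036, adjusted p = 0.417). Its neighbour Cd8b1, the beta chain, had 4.23, 4.13 and 4.09 against 4.17, 4.32 and 4.42, so that the groups overlapped (log2 fold change -0.15). Cd4, the coreceptor of helper and regulatory T cells, had 5.37, 5.37 and 5.59 against 5.29, 5.54 and 5.02. Here Ctrl 3 was the lowest array and Ctrl 2 the second highest, and the log2 fold change was 0.16.

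Icos, an inducible costimulator of activated T cells that is also found on innate lymphoid cells, had levels of 6.92, 7.28 and 6.92 in the arrays labelled Lyve-1-KO and 6.55, 6.88 and 6.57 in the Ctrl arrays. The groups did not overlap, although Lyve-1-KO 1 and 3 exceeded Ctrl 2 by less than 0.05. The log2 fold change was 0.38 (95% interval 0.06 to 0.69; limma unadjusted p = 0.027, adjusted p = 0.387). Within the replicate numbers, which are not known to pair the pools, the differences were 0.37, 0.40 and 0.35. Their shared sign follows from the lack of overlap and adds no support. Without Lyve-1-KO replicate 2, Ctrl replicate 1 or Ctrl replicate 3, its unadjusted p was no longer under 0.05. Ctla4, the neighbouring gene of Icos and an inhibitory receptor of activated and regulatory T cells, had levels from 3.58 to 3.76 in all 6 arrays and a log2 fold change of -0.02.

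Foxp3, the transcription factor of regulatory T cells, had levels of 4.24, 4.21 and 4.40 in the arrays labelled Lyve-1-KO and 4.31, 4.50 and 3.93 in the Ctrl arrays. Ctrl 2 was the highest and Ctrl 3 the lowest array. Il7r, the receptor chain for the T cell survival factor interleukin-7, had 3.85, 3.81 and 3.75 against 3.69, 4.50 and 4.10, a log2 fold change of -0.30 with overlapping groups and again Ctrl 2 as the highest array. Cd5, a receptor that dampens T cell receptor signals, and Zap70, the kinase that binds the phosphorylated CD3 chains, had log2 fold changes of -0.01 and 0.03. The highest and lowest array differed by 0.10 for Cd5 and by 0.31 for Zap70.

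Of 36 further T cell genes, 34 were measured, with a median log2 fold change of 0.02, 18 above 0 and 16 below. None passed the adjusted threshold. An unadjusted p under 0.05 was found for 1 higher gene (2.94%) and for 2 lower genes (5.88%), against 5.87% and 5.33% of all genes. Bcl11b, a transcription factor that maintains T cell identity, had levels of 3.84, 3.75 and 4.06 against 4.45, 4.31 and 4.82, a log2 fold change of -0.64 with no overlap (limma adjusted p = 0.239). Lag3, an inhibitory receptor of activated T and NK cells, had 5.89, 5.46 and 5.98 against 5.19, 5.25 and 5.50, a log2 fold change of 0.46 with overlapping groups (adjusted p = 0.356). Ubash3a, a suppressor of T cell receptor signaling, had a value of -0.19. The T cell receptor constant regions were chosen after their values were seen, and Trbc1 and Trbc2 are near-identical copies whose probes may read both. Their signal was well above the array median, unlike that of most of the 12 T genes. Trbc1 had levels of 8.99, 8.09 and 8.84 in the arrays labelled Lyve-1-KO and 7.57, 8.08 and 8.51 in the Ctrl arrays, a log2 fold change of 0.59 with overlapping groups (limma adjusted p = 0.518). Its 3 highest arrays were those of the NK genes, and Ctrl 1 was the lowest. Trbc2 had 8.95, 8.65 and 8.90 against 8.27, 8.95 and 9.25, a log2 fold change of 0.01. Trac had levels of 6.96, 5.90 and 6.51 against 6.24, 6.78 and 6.91, so that Lyve-1-KO 2 was the lowest array and Lyve-1-KO 1 the highest.

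The NK cell genes varied more between arrays than the T and B genes, and the arrays of both groups were found at both ends. Their mean level was 6.83, 6.06 and 6.59 in Lyve-1-KO replicates 1 to 3 and 5.62, 5.95 and 6.83 in Ctrl replicates 1 to 3, which is 6.49 ± 0.39 against 6.14 ± 0.63 (SD, n = 3 arrays each). Of the 12 genes, 11 had a log2 fold change above 0, but 0 had an unadjusted p under 0.05 from limma and 0 had groups without overlap. In all 12 genes the 3 highest arrays were Lyve-1-KO 1, Lyve-1-KO 3 and Ctrl 3. The order among these 3 differed between genes. This set of highest arrays was noticed after the values were seen, and it was found in 5.91% of all genes and in 0 of the 12 T and 0 of the 8 B genes. Ctrl 1 was the lowest array in 11 of the 12 genes, and Lyve-1-KO 2 was the lowest for Klrb1c.

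**Figure D2:**
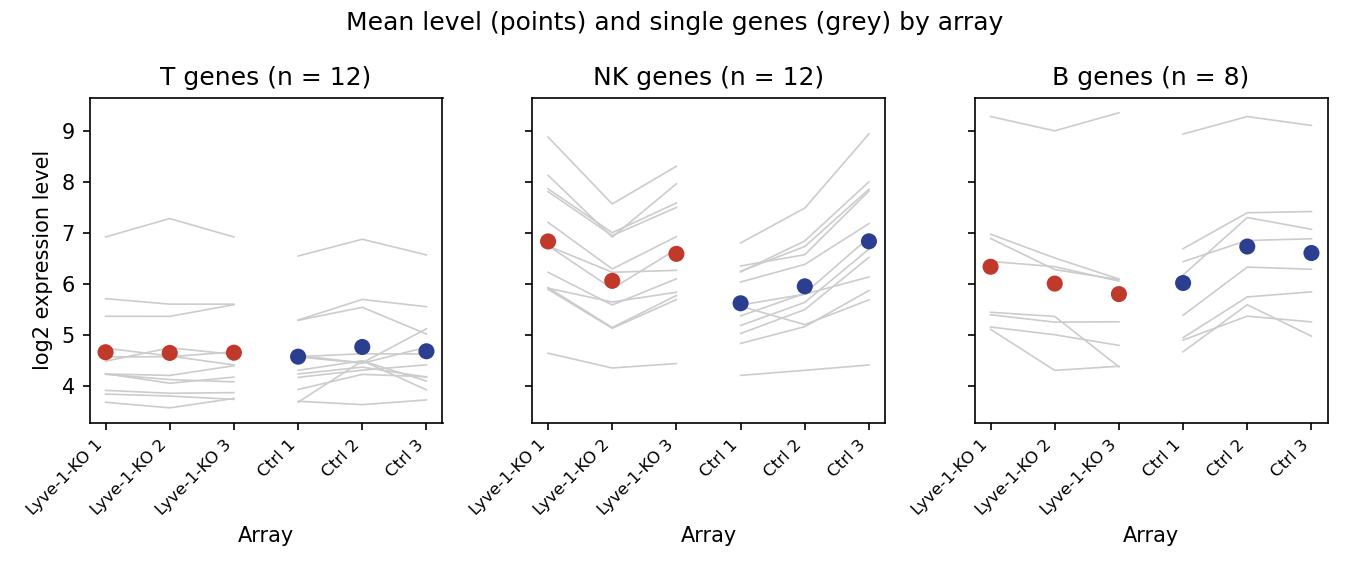
Points give the mean log2 level (vertical axis) of the T, NK and B genes in each array (horizontal axis; Lyve-1-KO in red, Ctrl in blue), and grey lines give the single genes. The T means lie between 4.58 and 4.77, the NK means run from 5.62 in Ctrl 1 to 6.83 in Lyve-1-KO 1 and Ctrl 3, and the B means from 5.80 in Lyve-1-KO 3 to 6.73 in Ctrl 2.

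The sequence at the starts of the lymphocyte genes was read as well, and a link between it and the array order was not tested. Promoter windows from RefSeq (GRCm38.p6, 250 bases before to 50 bases after each start) were found for 24 of the 32 genes, with 28 windows in all. The letters TGTGGT, the core motif of RUNX factors, which take part in NK and T cell development, were searched on both strands and stood in 16.8% of all 32851 windows of this table. They were found in 8 of 10 NK genes with a window (9 of 11 windows), in 2 of 9 T genes (Zap70 and Il7r) and in 0 of 5 B genes. Such a match is a description of the letters and does not show a binding site. Stretches from NK promoters that hold it are printed 5′ to 3′ on the strand of the gene, with the motif or its reverse complement in capitals.
Ncr1, chr7:4337514-4337569 (+): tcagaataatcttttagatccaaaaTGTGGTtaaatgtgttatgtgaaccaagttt
Klrk1, chr6:129623963-129624018 (-): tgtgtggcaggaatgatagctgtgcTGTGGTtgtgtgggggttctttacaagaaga
Gzma, chr13:113101001-113101056 (-): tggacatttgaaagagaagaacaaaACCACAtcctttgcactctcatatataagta
Gzmb, chr14:56262338-56262393 (-): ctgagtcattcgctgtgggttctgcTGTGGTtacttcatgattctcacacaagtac
Prf1, chr10:61297681-61297736 (+): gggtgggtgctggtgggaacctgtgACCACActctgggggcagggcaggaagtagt
Nkg7, chr7:43437030-43437085 (+): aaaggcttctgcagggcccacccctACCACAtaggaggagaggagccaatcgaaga
The other NK genes with the motif were Klrb1c and Xcl1. The letters GGTGTGA, a T-box core of the kind that Eomes and T-bet bind, stood in 3.98% of all windows and in those of Xcl1 and Nkg7. The octamer ATGCAAAT, known from immunoglobulin promoters, stood in 1.74% of all windows and in none of the lymphocyte genes with a window, and CCCNNGGG, a core of the B cell factor EBF, in 13.7% and in Zap70, Prf1 and Cd22.

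Among the NK receptors, Ncr1, which encodes NKp46 and is the most NK-restricted of these genes, had levels of 8.12, 6.92 and 7.96 in the arrays labelled Lyve-1-KO and 6.24, 6.84 and 7.997 in the Ctrl arrays. The lowest and the second highest of the 6 values were both Ctrl arrays. The log2 fold change of 0.64 had a standard error of 0.49 (adjusted p = 0.668 from limma), and the highest array lay 3.70-fold above the lowest. Klrk1, which encodes the activating receptor NKG2D, had 6.23, 5.59 and 6.10 against 5.03, 5.50 and 6.52, a log2 fold change of 0.29. Ctrl 3 was the highest and Ctrl 1 the lowest array. Klrd1, the CD94 partner of the NKG2 receptors and the neighbouring gene of Klrk1, had 5.93, 5.15 and 5.78 against 4.84, 5.17 and 5.87, a log2 fold change of 0.33. Klrb1c, the NK1.1 antigen, belongs to a family of close copies and its signal is therefore less certain. It had 5.90, 5.13 and 5.70 against 5.57, 5.21 and 5.69, a log2 fold change of 0.09.

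The genes of the killing machinery had the same 3 highest arrays. Gzma, a granzyme of resting NK cells, had levels of 8.87, 7.56 and 8.30 in the arrays labelled Lyve-1-KO and 6.80, 7.48 and 8.94 in the Ctrl arrays. Ctrl 3 lay 4.39-fold above Ctrl 1, the widest range of the 32 genes, and the log2 fold change between the groups was 0.51 with a standard error of 0.56 (adjusted p = 0.780 from limma). Gzmb, the granzyme of activated killer cells, had 6.75, 5.91 and 6.68 against 5.38, 5.82 and 6.91, a log2 fold change of 0.41. Prf1, which encodes the pore-forming perforin, had 7.81, 6.95 and 7.50 against 6.35, 6.57 and 7.82, a log2 fold change of 0.50. Nkg7, a granule membrane protein of NK cells and cytotoxic T cells, had 7.86, 7.00 and 7.58 against 6.25, 6.73 and 7.85, a log2 fold change of 0.54. In each of these 4 genes the range within the Ctrl group was wider than the difference between the group means.

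Xcl1, a chemokine that NK cells secrete to attract cross-presenting dendritic cells, had levels of 6.74, 6.23 and 6.27 in the arrays labelled Lyve-1-KO and 5.19, 5.64 and 6.68 in the Ctrl arrays (log2 fold change 0.58, limma adjusted p = 0.596). Lyve-1-KO 2 and 3 were close together here, unlike in Ncr1 and Gzma. Il2rb, the interleukin-15 receptor chain that keeps NK cells alive, had 7.21, 6.29 and 6.93 against 6.04, 6.38 and 7.18, a log2 fold change of 0.27. The T-box factors of NK cell maturation varied less over the arrays, as Eomes ranged from 4.21 to 4.65 and Tbx21, which encodes T-bet, from 5.59 to 6.14. Their log2 fold changes were 0.17 and -0.04, and Tbx21 was the only NK gene below 0.

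Within the replicate numbers, which are not known to pair the pools, the NK genes did not keep a direction. As the groups overlap, another matching of the arrays could give other signs. Between Lyve-1-KO 1 and Ctrl 1 all 12 genes were higher in the array labelled Lyve-1-KO, and their mean differed by 1.21. Between the arrays numbered 2 the mean differed by 0.11 with 8 of 12 genes higher, and between those numbered 3 by -0.25 with 2 of 12 higher. Without Ctrl replicate 1 the NK median was 0.11, with 0 genes at an unadjusted p under 0.05. Without Ctrl replicate 3 it was 0.78, and 8 of the 12 genes were higher at an unadjusted p under 0.05, Xcl1 with a value of 1.00 and Prf1 of 0.95 among them, as were 4.88% of all genes in the same fit. Without Lyve-1-KO replicate 1 the median was 0.18, and without Lyve-1-KO replicate 2 it was 0.61.

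Of 28 further NK genes, 24 were measured, and 13 of these (54.2%) had the same 3 highest arrays. Their median log2 fold change was 0.06, with 18 above 0 and 6 below, and Klrc1, which encodes the NKG2A receptor, was the only gene at an unadjusted p under 0.05 (log2 fold change 0.46, limma adjusted p = 0.414). Klrc1 had levels of 4.44, 4.07 and 4.50 against 3.76, 3.64 and 4.21, with overlapping groups and a dim signal. With the replicate block 5 of the 24 genes were higher at an unadjusted p under 0.05 (Cd244a, Il18rap, Klrb1f, Klrc1 and Nfil3). In the same fit 5.78% of all genes were higher at that threshold, and 0 of the 24 passed the adjusted threshold of limma. Many genes of this list are near-identical Klra and Klrb copies whose probes may read several of them. Among the further T cell genes 8 of 34 (23.5%) had the same 3 highest arrays. Ccl5, a chemokine stored by NK cells and memory T cells and chosen after its values were seen, had 10.19, 9.40 and 9.73 against 8.31, 8.71 and 10.18. Its highest arrays were those of the NK genes, and its lowest was again Ctrl 1.

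The B cell genes had the opposite sign of group difference, and their array order was another one. Their mean level was 6.34, 6.01 and 5.80 in Lyve-1-KO replicates 1 to 3 and 6.02, 6.73 and 6.61 in Ctrl replicates 1 to 3, which is 6.05 ± 0.27 against 6.45 ± 0.38 (SD, n = 3 arrays each). Of the 8 genes, 7 had a log2 fold change below 0. Of these, 3 reached an unadjusted p under 0.05 from limma, where 5.33% of all genes were lower. The groups overlapped in each of them. In 6 of 8 genes Ctrl 2 and Ctrl 3 were the 2 highest arrays, a pattern noticed after the values were seen and found in 8.39% of all genes. Lyve-1-KO 3 was the lowest array in 4 genes and Ctrl 1 in 3.

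Of the defining B cell genes, Ms4a1, which encodes CD20, had levels of 5.45, 5.37 and 4.38 in the arrays labelled Lyve-1-KO and 5.39, 6.33 and 6.29 in the Ctrl arrays. Lyve-1-KO 3 lay about 1 below the next array, while Ctrl 1 lay beside Lyve-1-KO 1 and 2. The log2 fold change was -0.94 with a standard error of 0.36, the largest in size of the 32 genes and a level of 0.522 of Ctrl (limma unadjusted p = 0.034, adjusted p = 0.413). Cd79a, a signaling chain of the B cell receptor, had 6.97, 6.51 and 6.10 against 6.69, 7.39 and 7.42. Its log2 fold change was -0.64 with a standard error of 0.27 (unadjusted p = 0.051, adjusted p = 0.449). Its partner Cd79b had 6.89, 6.28 and 6.08 against 6.18, 7.30 and 7.07, a log2 fold change of -0.43. In these 3 genes Lyve-1-KO 3 was the lowest array, and Ctrl 1 lay among the arrays labelled Lyve-1-KO.

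Pax5, the transcription factor that commits cells to the B lineage, had levels of 5.11, 4.31 and 4.39 in the arrays labelled Lyve-1-KO and 4.90, 5.37 and 5.26 in the Ctrl arrays. Lyve-1-KO 1 lay between the Ctrl values, and the log2 fold change was -0.57 (limma unadjusted p = 0.042, adjusted p = 0.428). Fcmr, the receptor for immunoglobulin M, had 6.44, 6.34 and 6.06 against 6.44, 6.85 and 6.88. The groups touched at Lyve-1-KO 1 and Ctrl 1, and the log2 fold change was -0.44 with a standard error of 0.15 (unadjusted p = 0.022, adjusted p = 0.370).

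Cd22, an inhibitory coreceptor, had levels of 5.40, 5.25 and 5.26 in the arrays labelled Lyve-1-KO and 4.95, 5.75 and 5.85 in the Ctrl arrays. Ctrl 1 was the lowest of the 6 arrays and the other Ctrl arrays were the highest (log2 fold change -0.21). Blk, a kinase of the B cell receptor, had 5.16, 5.01 and 4.80 against 4.68, 5.59 and 4.98, a log2 fold change of -0.09. Cd37, a tetraspanin that other leukocytes carry as well, was the only gene of the list above 0. It had 9.27, 8.99 and 9.35 against 8.93, 9.27 and 9.10, a log2 fold change of 0.10, and its lowest array was Ctrl 1.

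Within the replicate numbers, again with no known pairing, all 8 B genes were higher in Lyve-1-KO 1 than in Ctrl 1. All 8 were lower in Lyve-1-KO 2 than in Ctrl 2, and 7 of 8 were lower in Lyve-1-KO 3 than in Ctrl 3. The mean differences were 0.32, -0.72 and -0.80. Without Ctrl replicate 1 the median log2 fold change was -0.65, and 6 of 8 genes were lower at that unadjusted threshold, among them Ms4a1 at -1.25 and Cd79a at -0.88, as were 5.31% of all genes in the same fit. Without Lyve-1-KO replicate 3, Ctrl replicate 2 or Ctrl replicate 3 the medians were -0.30, -0.29 and -0.34, and 0 of the 8 genes were lower at that threshold in limma, against 3.72%, 5.31% and 4.98% of all genes. Without Lyve-1-KO replicate 1 the median was -0.60 with 4 genes lower (4.13% of all genes), and without Lyve-1-KO replicate 2 it was -0.39 with 2 lower (5.11%).

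Of 27 further B cell genes, 23 were measured, of which 18 lay below 0, and the median log2 fold change was -0.12. None passed the adjusted threshold. At an unadjusted p under 0.05 there were 0 higher and 3 lower genes (13.0%), against 5.87% and 5.33% of all genes. The same 3 had no overlap between the groups, lying below Ctrl as did 8.73% of all genes. Tnfrsf13b, the TACI receptor for the B cell factors BAFF and APRIL, had levels of 3.70, 3.71 and 3.73 against 3.94, 4.07 and 4.08, a log2 fold change of -0.32 at a dim signal (limma adjusted p = 0.211). Cr2, the complement receptor CD21 of mature B cells, had 3.89, 3.85 and 3.90 against 4.13, 4.17 and 4.62, a log2 fold change of -0.43 (adjusted p = 0.335). Pou2af1, a coactivator of immunoglobulin transcription, had a value of -0.22 (adjusted p = 0.419). In 12 of the 23 genes (52.2%) Ctrl 2 and Ctrl 3 were the 2 highest arrays. Ighm, the immunoglobulin M heavy chain, was chosen after its values were seen and had 9.28, 8.79 and 8.54 against 8.77, 9.46 and 9.46. Lyve-1-KO 3 was the lowest array and Ctrl 1 the second lowest, and the log2 fold change was -0.36.

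**Figure D3:**
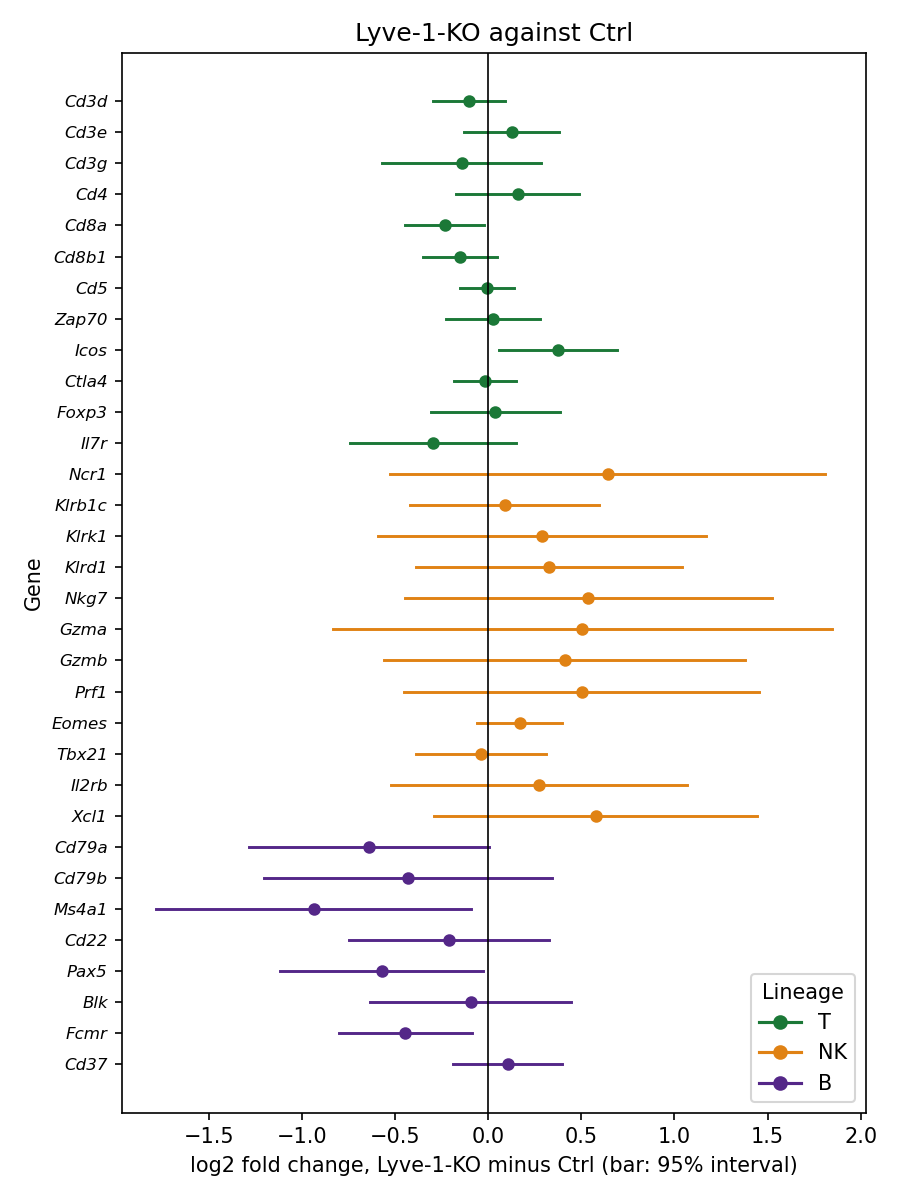
Points give the log2 fold change of each of the 32 genes (horizontal axis, arrays labelled Lyve-1-KO minus Ctrl), and bars the 95% interval from limma, coloured by lineage. All 12 NK intervals include 0, those of Ms4a1, Pax5, Fcmr and Cd8a lie below 0 and that of Icos above 0, before adjustment over 24479 genes.

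Markers of other cells in the preparation moved over the arrays as well. The mean of 17 genes shared by all leukocytes was 7.97, 7.73 and 8.27 in the arrays labelled Lyve-1-KO and 7.13, 8.09 and 8.07 in the Ctrl arrays, and Ctrl 1 was the lowest array in 13 of them. Of the 17 genes, 14 had a log2 fold change above 0 and 3 below, with a median of 0.22. Arhgdib, with the smallest unadjusted p of this list, had 11.20, 11.15 and 11.07 against 11.24, 11.39 and 11.38. Its log2 fold change was -0.19 (limma adjusted p = 0.395), and Lyve-1-KO 3 was its lowest array. Its groups did not overlap, lying below Ctrl as did 8.73% of all genes. Ptprc, the leukocyte surface protein CD45, was chosen after its values were seen and had 8.85, 8.47 and 9.17 against 7.19, 8.79 and 9.03. Ctrl 1, the lowest array for 11 NK genes, was thus also the lowest for this general marker.

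The mean of 14 macrophage markers ranged from 8.68 to 9.70 under the Lyve-1-KO label and from 7.53 to 9.67 in the Ctrl arrays. All 14 had a log2 fold change above 0, with a median of 0.45, and all 14 were lowest in Ctrl 1. Marco, a scavenger receptor of macrophages, had 8.71, 9.70 and 10.99 against 6.33, 8.66 and 7.67, a log2 fold change of 2.24 with no overlap (limma adjusted p = 0.355). Their order was not that of the NK genes, since Ctrl 2 was the highest array in 11 of 14 macrophage markers and in 0 of 12 NK genes.

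The mean of 9 neutrophil markers ranged from 5.28 to 7.04 under the Lyve-1-KO label and from 5.09 to 5.61 in the Ctrl arrays. Lyve-1-KO 3, the lowest array for 4 B genes, was the highest in 7 of these markers. Of the 9, 8 had a log2 fold change above 0 and 1 below, with a median of 0.89, and none passed the adjusted threshold. Cxcr2, a chemokine receptor of neutrophils, had 7.25, 6.34 and 8.46 against 6.29, 6.42 and 6.40, where Lyve-1-KO 3 was highest. The mean of 8 measured hepatocyte markers ranged from 8.33 to 9.35 and from 8.07 to 9.25, with a median log2 fold change of -0.01, and 6 measured markers of plasmacytoid dendritic cells had a median of 0.10. No marker can reach 0 on this scale, whose lowest value is 2.92, and all 14 macrophage and all 8 hepatocyte markers lay above the array median in all 6 arrays. The part of these cells in the lymphocyte results was not tested.

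**Figure D4:**
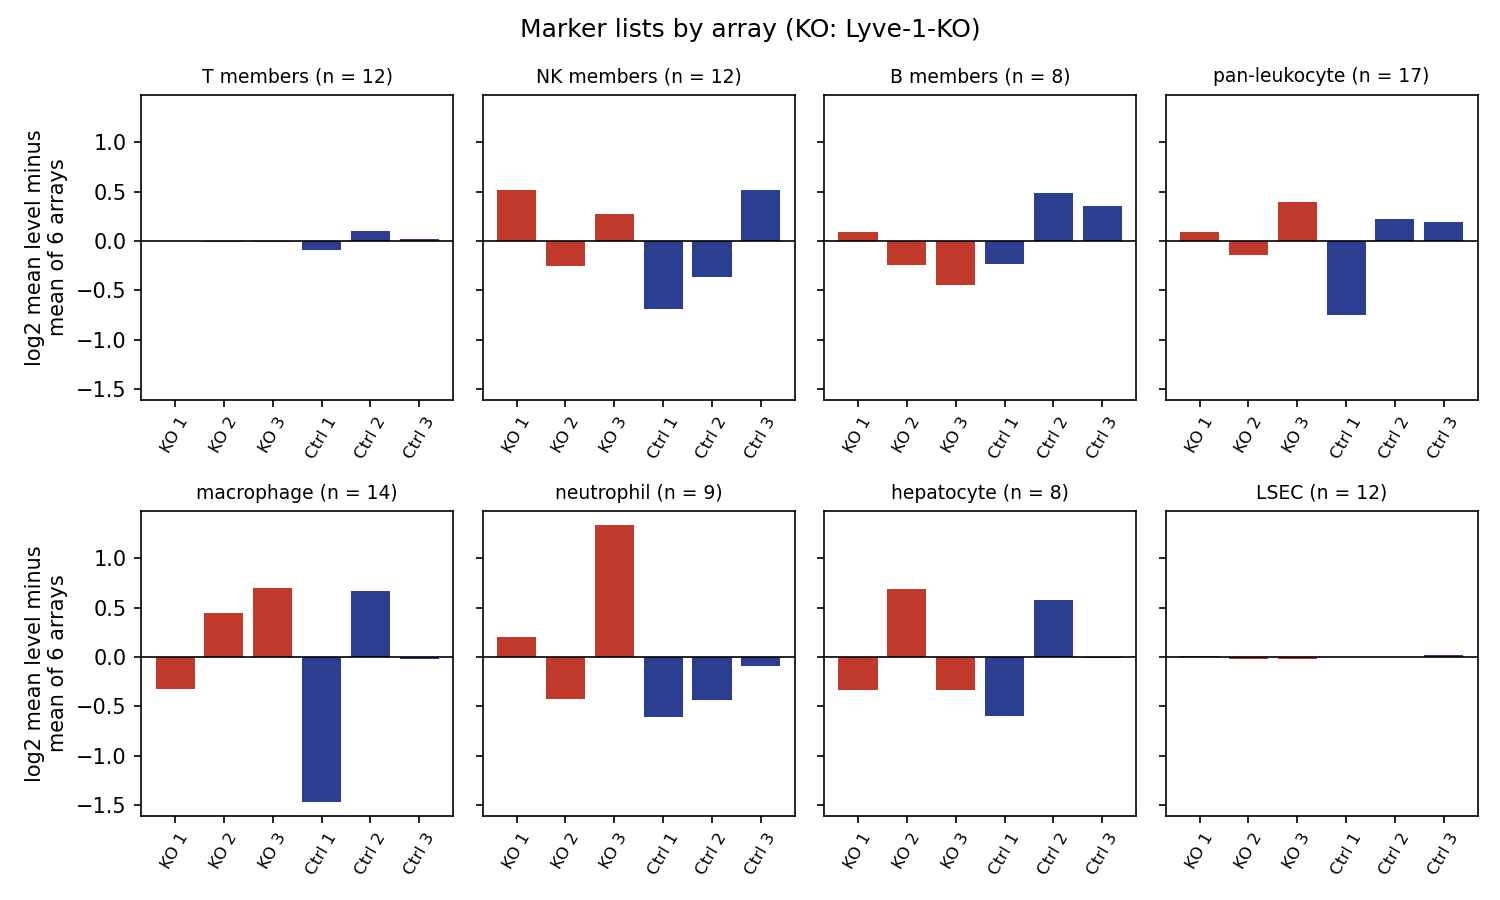
Bars give the mean log2 level of a marker list in each array minus its mean over the 6 arrays, with Lyve-1-KO in red and Ctrl in blue. Ctrl 1 is lowest for the T, NK, pan-leukocyte, macrophage, neutrophil and hepatocyte lists, though the T list varies little. Lyve-1-KO 3 is highest for the neutrophil list, and the LSEC list is nearly flat.

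Signals that endothelial and other liver cells send to lymphocytes were read as well. Of 18 genes for chemokines, cytokines and costimulators, 17 were measured, 12 of them with a log2 fold change above 0 (median 0.14), and none passed the adjusted threshold. Cxcl10, a chemokine for CXCR3 on activated T and NK cells, had levels of 11.77, 12.03 and 12.08 in the arrays labelled Lyve-1-KO and 10.42, 11.09 and 11.29 in the Ctrl arrays. The groups did not overlap, and the log2 fold change was 1.03 with a standard error of 0.22 (adjusted p = 0.232 from limma). Ctrl 1 was again the lowest array, but Lyve-1-KO 1 was the lowest of its group, unlike in the NK genes. Cxcl9, another ligand of CXCR3, had 11.89, 11.85 and 11.64 against 11.46, 11.48 and 11.73, a log2 fold change of 0.24 with overlapping groups. Ccl19, a chemokine for naive T cells and B cells, had a value of -0.36. Mcam, which encodes CD146, the antigen of the sort, ranged from 11.06 to 11.22 and from 11.02 to 11.26, with a log2 fold change of -0.02.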

How the data were processed

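RNA from 3 pools of each group was read on 6 MoGene-2_0-st arrays (Affymetrix). The authors assigned probes to Entrez genes by a custom definition file and applied quantile normalization to the intensities; each deposited value is the log2 level of a gene on an array. The submitters' processing notes also list RMA, with no version given. Quantile normalization gives the arrays 1 distribution, so a shift of all genes cannot be seen. Depth does not apply to arrays, and 3 arrays per group limit the precision. Arrays correlated at 0.991 to 0.996.

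Groups were compared with limma 3.58.1 in R 4.3.3 (lmFit, eBayes) over 24479 genes without a filter, with Benjamini-Hochberg adjustment and a threshold of 0.05, and the fit was tested on simulated data. A symbol was found for 23281 genes in the probe annotation. Named were all members, up to 3 genes per further list with the smallest unadjusted p, Lyve1 and Mcam, and genes described as chosen later. The members and lists were chosen with earlier results of these data known. Promoters came from RefSeq.

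Pools carry numbers 1 to 3 in both groups, and no source says what these numbers share. Deviations from the group means correlated at 0.206, 0.134 and 0.124 for the same number, all above 0.1. Between different numbers the correlation was -0.218 to 0.0432. Such deviations cancel out within each group, so these values are not separate pieces of evidence. Whether the numbers pair the pools was thus not established. The main fit took no account of the numbers, and a fit with the number as a replicate block was run only as an alternative. Alternatives were this replicate block, median centring, a filter at the 40th percentile of the mean level, array weights, a trended and robust variance, the methods' one-way test, the defining genes alone and leaving out each array.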

Additional observations from a re-analysis of the deposited data

How the results depend on the processing

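None of the 32 lymphocyte genes passed an adjusted p of 0.05 under the alternatives run. Among all genes, where 1 passed, 0 passed with the replicate block, 0 with the methods' one-way test and 49 with a trended and robust variance, and 0 to 2 passed with single arrays left out, the 2 being Iqcn and Trim69 without Ctrl replicate 1. The 5 lymphocyte genes at an unadjusted p under 0.05 became 3 with the replicate block, and 0 with the methods' one-way test. Leaving out single arrays gave 1 to 9 of them, with 1 without Lyve-1-KO replicate 3 (Icos) or Ctrl replicate 2 (Icos), 2 without Lyve-1-KO replicate 2 (Fcmr and Ms4a1), 5 without Lyve-1-KO replicate 1, 8 without Ctrl replicate 3 (all higher and all NK genes; 4.88% of all genes were higher) and 9 without Ctrl replicate 1 (6 B genes, Cd8a, Cd8b1 and Il7r, all lower; 5.31% of all genes were lower). Apart from these counts, and those at an unadjusted p of further lists, the block changed no adjusted call of the lymphocyte genes or of the other genes named by the rule.

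The T median of -0.01 was 0.0754 in the 6 genes left by the filter at the 40th percentile and -0.12 for the 6 defining genes, and -0.05 to 0.002 with single arrays left out. The NK median kept its sign in each alternative, from 0.11 to 0.78 with single arrays left out, and so did the B median, from -0.65 to -0.29. Centring, the block, the changed tests and the filter leave the fold change of a gene as it is, so that only array weights and the left-out arrays could turn it. In these 7 alternatives 206 of 224 single fold changes kept their direction and 18 turned, in 9 genes and only where an array was left out. With single arrays left out these ranged from -0.30 to 0.16 for Blk, -0.28 to 0.0550 for Cd3g, -0.0384 to 0.0104 for Cd5, -0.0606 to 0.0312 for Ctla4, -0.12 to 0.16 for Foxp3, -0.0723 to 0.31 for Klrb1c, -0.0366 to 0.71 for Klrk1, -0.17 to 0.11 for Tbx21 and -0.0480 to 0.11 for Zap70. The cause was not tested. Most T genes had a signal near or below the array median, where differences are hard to read.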
